A study of Homo sapiens with 6 samples.

Results

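AP-1 is a transcription factor made of pairs of a FOS family and a JUN family protein, or of JUN pairs, and several of its genes belong to the immediate early genes, which are transcribed within minutes of a growth factor or stress signal without any new protein being made. The genes followed here were the FOS family members FOS, FOSL1 and FOSL2, the JUN family members JUN, JUNB and JUND, the early transcription factors EGR1 and ATF3, and IER3 and DUSP1, early genes that encode a survival factor and a phosphatase of MAP kinases. They were the rows of the deposited count table that carry these names, 10 of 57341 genes, and all were found. Signals that reach these promoters commonly run through the MAP kinases ERK, JNK and p38, through the serum response factor, which binds the CArG box, and through CREB and ATF proteins, which bind the cAMP response element (CRE). In the adrenal cortex, several of these genes are known to respond to ACTH and angiotensin II.

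RNA was sequenced from H295R, a human adrenocortical carcinoma line, and from H295R-PM-Ptc+, the cells of that line with the Hedgehog receptor Ptch1 at the plasma membrane, isolated by flow sorting and then amplified in culture. Neither population received a treatment, and both were grown in the same medium, a DMEM/F12 base with NuSerum and ITS+ supplements. Each was represented by 3 libraries, and nothing in the descriptions says whether the 3 came from separate cultures or sorts, so p-values measure the spread between these libraries, which may be technical. Total RNA was bulk, and fewer cells making a transcript cannot be told apart from less of it per cell. The comparison asks how the sorted population differs from the line that it came from.

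A limit applies to every direction given here. In the supplementary expression table of the study, each column carries the other group's name compared with the deposited counts, and nothing in the counts settles which naming holds. Libraries are called here parental-labelled and Ptc+-labelled, after the deposited table, and all changes are the Ptc+-labelled minus the parental-labelled libraries. PTCH1, which encodes the sorted protein, had 441, 559 and 579 counts in the parental-labelled libraries 1, 2 and 3 and 248, 326 and 319 counts in the Ptc+-labelled ones. Its level was thus lower where the label says that the protein was selected (log2 fold change -0.81, edgeR quasi-likelihood test, Benjamini-Hochberg adjusted p = 0.0207). Without the parental-labelled library 2 or 3 or the Ptc+-labelled library 2 the adjusted p for PTCH1 lay between 0.0618 and 0.0921.

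Between 23264403 and 25813247 fragments per library fell on genes, and 16710 genes passed edgeR's filter on low counts. Of the 10 genes, 9 were tested and IER3 was not. The adrenocortical marker STAR stood at 249 to 516 CPM (counts per fixed library size after TMM scaling), while the immune markers PTPRC and CD68 had no counts in any library. The summed level of 5 immune markers was 0.0787 to 0.502 CPM in the parental-labelled and 0.648 to 1.06 CPM in the Ptc+-labelled libraries. The sum of 5 fibroblast markers was 7.72 to 8.94 against 9.12 to 10.9 CPM, and that of 5 chromaffin markers, mostly CHGB, 65.2 to 76.7 against 51.5 to 61.2 CPM. The fibroblast marker LUM and the chromaffin markers PNMT and DBH had no counts in any library. None of these sums overlapped between the groups, while that of 5 endothelial markers did (0.0394 to 0.251 against 0.121 to 0.274 CPM), and their part in the results was not tested. Library 1 of each group stood apart for several of the genes, as described with them.

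Of the 9 tested genes, EGR1 and ATF3 were higher in the Ptc+-labelled libraries, each 1.64-fold, and none was lower, at an edgeR adjusted p under 0.05. Over all tested genes that rule called 3.73% (2.42% higher and 1.32% lower). At an unadjusted p under 0.05 there were 5 of 9 higher and 0 lower, beside 9.6% higher and 7.67% lower of all tested genes. FOSL2, JUN and FOS did not overlap between the groups either and had log2 fold changes of 0.31, 0.33 and 0.52, without passing the test. JUNB and FOSL1 overlapped, and JUND and DUSP1 lay near 0. The log2 fold change was above 0 in 8 of 9, beside 50.2% of all tested genes, and its median was 0.33 beside 0.00 over all. For 5 of 9 every Ptc+-labelled library lay above every parental-labelled one, which held for 12.4% of all tested genes. The study placed ATF3, EGR1, FOSL2 and JUN in a module that it chose on these libraries, so their common direction is not independent evidence.

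**Figure D1:**
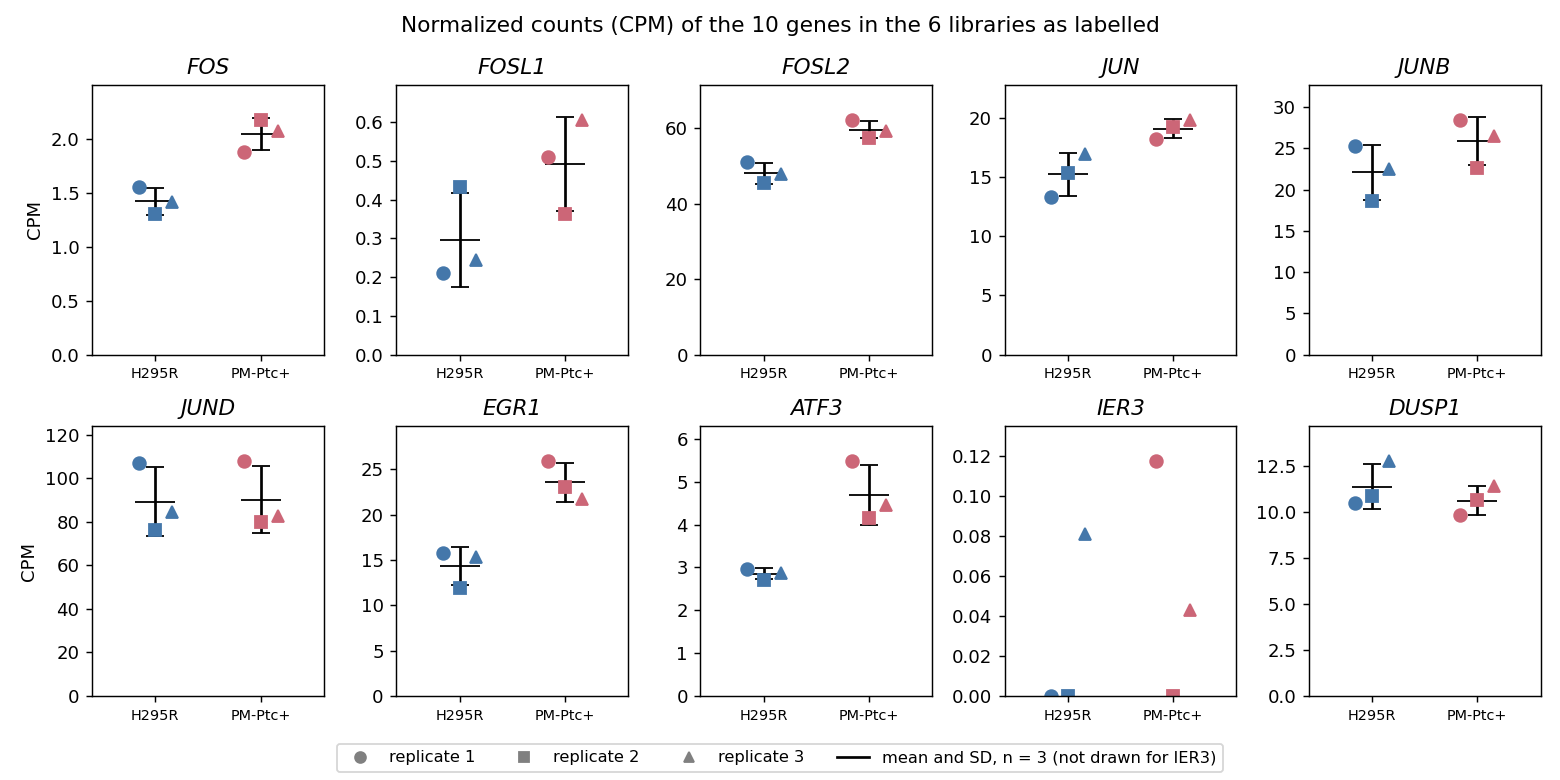
CPM of each of the 10 genes (vertical axes from 0) in the 3 libraries labelled H295R (blue) and the 3 labelled H295R-PM-Ptc+ (red, shown as PM-Ptc+), with marker shapes for replicate numbers and black bars for mean and SD. The groups are apart for FOS, FOSL2, JUN, EGR1 and ATF3 and overlap for the other genes.

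EGR1, a zinc finger factor induced by ERK signaling, lies on chromosome 5 (hg38, 138465490 to 138469315, plus strand). It had 15.7, 11.9 and 15.4 CPM in the parental-labelled libraries 1, 2 and 3, from 303 to 380 counts. In the Ptc+-labelled libraries it had 25.9, 23.1 and 21.7 CPM, from 503 to 662 counts. Every value of the second group was above every value of the first, and the lowest library of all was the parental-labelled library 2. The mean rose from 14.3 ± 2.10 to 23.6 ± 2.13 CPM (n = 3 libraries each, SD), a fitted log2 change of 0.72 with a standard error of 0.125 (edgeR adjusted p = 0.0167). The call was lost without the parental-labelled library 3 (adjusted p = 0.0580) or the Ptc+-labelled library 2 (adjusted p = 0.0610), with log2 fold changes of 0.76 and 0.73.

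ATF3, a bZIP repressor and activator of the stress response that can pair with JUN proteins, lies on chromosome 1 (212565334 to 212620777, plus strand). Its level was 2.97, 2.72 and 2.87 CPM in the parental-labelled libraries, where 69 to 71 counts were found. It was 5.48, 4.14 and 4.45 CPM in the Ptc+-labelled libraries, on 103 to 140 counts. The parental-labelled values lay close together, and the Ptc+-labelled library 1 was the highest of the 6. The mean rose from 2.85 ± 0.129 to 4.69 ± 0.699 CPM, a log2 fold change of 0.72 with a standard error of 0.158 (edgeR adjusted p = 0.0426). Of the 6 fits that leave out a library, only the one without the parental-labelled library 1 kept the call. Leaving out another library moved the adjusted p to 0.140 (parental-labelled 2), 0.147 (parental-labelled 3), 0.115 (Ptc+-labelled 1), 0.0791 (Ptc+-labelled 2) or 0.124 (Ptc+-labelled 3), and the log2 fold change stayed between 0.58 and 0.80.

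The sequences before the start sites of these called genes are shown because the elements that immediate early signals are known to use can be read in them. RefSeq windows (GRCh38.p14) were found for 8 of the 10 genes, while FOSL1 and IER3 had no entry, and bases that the deposited annotation counts as exon were left out of what is printed. Capitals mark the CArG box (by its name), the CRE TGACGTCA, its shorter core TGACG, or the TATA box TATAAA, on either strand, where a CRE counts as a core on each strand. ATF3 has 2 windows, for start sites far apart.

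EGR1, chr5:138465229-138465478, plus strand: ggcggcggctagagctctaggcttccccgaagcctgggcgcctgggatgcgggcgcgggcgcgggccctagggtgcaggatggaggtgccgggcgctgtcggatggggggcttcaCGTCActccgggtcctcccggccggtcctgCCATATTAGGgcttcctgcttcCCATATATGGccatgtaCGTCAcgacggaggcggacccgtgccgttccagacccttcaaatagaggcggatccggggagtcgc

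ATF3 upstream start, chr1:212565157-212565333, plus strand: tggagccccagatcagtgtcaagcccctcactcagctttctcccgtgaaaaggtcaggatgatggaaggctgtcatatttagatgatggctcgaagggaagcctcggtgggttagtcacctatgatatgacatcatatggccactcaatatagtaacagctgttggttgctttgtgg

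ATF3 downstream start, chr1:212614768-212615017, plus strand: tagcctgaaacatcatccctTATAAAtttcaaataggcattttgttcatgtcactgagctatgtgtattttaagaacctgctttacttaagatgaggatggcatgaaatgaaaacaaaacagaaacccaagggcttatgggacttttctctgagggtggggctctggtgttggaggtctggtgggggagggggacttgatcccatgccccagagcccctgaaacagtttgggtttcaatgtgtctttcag

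The EGR1 window held 2 CArG boxes, whose first bases lie 105 and 83 bases before the start, and 2 CRE cores at 135 and 66 bases. A CArG box was found in 1.16% of 35116 RefSeq windows of the same 250 bases, and in no other window of these genes. Bases farther upstream were not searched, so FOS and the other genes may hold such elements outside their windows. Neither ATF3 window held a CArG box or a CRE core, and the one before the downstream start held a TATA box 230 bases before it. Any other start site of ATF3 was not searched, so these windows do not describe its promoter as a whole. The AP-1 site TGAGTCA, found in 4.2% of all windows, and the EGR site GCGTGGGCG, found in 0.72%, were in none of the windows of these genes. A match is a description of letters and not evidence of binding.

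Among the FOS family genes, FOSL2 was the most abundant. FOSL2, on chromosome 2 (28392448 to 28417312, plus strand), encodes FRA-2, a FOS protein without the strong activation domain of FOS. It had 51.0, 45.4 and 47.9 CPM in the parental-labelled and 62.2, 57.6 and 59.3 CPM in the Ptc+-labelled libraries. The groups were apart, and the difference within each replicate number was nearly the same, 0.29, 0.34 and 0.31 on the log2 scale. The fitted log2 fold change was 0.31 with a standard error of 0.0760 (edgeR adjusted p = 0.0612). With the replicate number as a block the adjusted p was 3.67e-04, and without the parental-labelled library 1 it was 0.0330. DESeq2, with an adjusted p of 0.0388, called FOSL2 beside EGR1 and ATF3, 3 of the 9 genes higher and none lower, where it called 5.45% of all tested genes (3.37% higher and 2.08% lower).

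FOS itself, the founding partner of JUN in AP-1, was scarce. It lies on chromosome 14 (75278774 to 75282230, plus strand) and had 37, 33 and 35 counts in the parental-labelled and 48, 54 and 48 in the Ptc+-labelled libraries, or 1.55, 1.30 and 1.42 CPM against 1.88, 2.17 and 2.07 CPM. The lowest Ptc+-labelled library was above the highest parental-labelled one. Its log2 fold change of 0.52 had a standard error of 0.178 (edgeR adjusted p = 0.167, and 0.0718 with the block), and no fit called it. FOSL1, which encodes FRA-1, on chromosome 11 (65892049 to 65900573, minus strand), had 5, 11 and 6 counts against 13, 9 and 14. These groups overlapped, pair 2 ran the other way, and the log2 fold change of 0.71 had a standard error of 0.385 (edgeR adjusted p = 0.398). At this depth the interval of 2 standard errors reached from -0.06 to 1.48.

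JUN, the strong activator of the JUN family, lies on chromosome 1 (58780788 to 58784327, minus strand). It had 13.4, 15.4 and 16.9 CPM in the parental-labelled and 18.2, 19.2 and 19.8 CPM in the Ptc+-labelled libraries. In both groups library 1 was the lowest, which is the reverse of what JUND showed. JUN had a log2 fold change of 0.33 with a standard error of 0.106 (edgeR adjusted p = 0.147). With the replicate block the adjusted p was 0.00510.

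JUNB, which tempers the activity of JUN in many settings, lies on chromosome 19 (12791496 to 12793315, plus strand). Its level was 25.3, 18.6 and 22.5 CPM in the parental-labelled and 28.4, 22.7 and 26.6 CPM in the Ptc+-labelled libraries. The groups overlapped, but each Ptc+-labelled library was above the parental-labelled one with the same number. The log2 fold change of 0.23 had a standard error of 0.129 (edgeR adjusted p = 0.421), and the adjusted p with the block was 0.0180. JUNB shares 259 bases with HOOK2 on the opposite strand, which had 409 to 506 counts. The strand setting that the study names for the counting is not the usual one for the kits it names, so reads from the other strand cannot be told apart in JUNB or in IER3.

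JUND, the JUN protein of resting cells in many tissues, lies on chromosome 19 (18279760 to 18281622, minus strand). It had 107, 76.4 and 84.3 CPM in the parental-labelled and 108, 80.0 and 82.7 CPM in the Ptc+-labelled libraries. Library 1 of each group stood above the other two, by 0.42 and 0.41 on the log2 scale, and the groups covered the same range. JUND had a log2 fold change of 0.02 with a standard error of 0.149 (edgeR adjusted p = 0.976), and its interval of 2 standard errors was -0.28 to 0.31.

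DUSP1, a nuclear phosphatase that switches off p38, JNK and ERK, lies on chromosome 5 (172768090 to 172771195, minus strand). It was the gene of the group with a fitted change below 0. Its level was 10.5, 10.9 and 12.7 CPM in the parental-labelled and 9.82, 10.6 and 11.4 CPM in the Ptc+-labelled libraries. Every same-numbered pair was lower in the Ptc+-labelled library, by 0.03 to 0.16 on the log2 scale, while the groups overlapped. The log2 fold change was -0.10 with a standard error of 0.117 (edgeR adjusted p = 0.748, interval -0.33 to 0.13). DUSP1 thus gave no called change, with an interval that leaves out the 0.72 of EGR1 and ATF3. The difference between the genes was not tested.

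JUND and DUSP1, the genes nearest to no change, were also the ones whose windows held a whole CRE, an element found in 1.65% of all windows, and their sequences are given beside that of EGR1 for this reason.

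JUND, chr19:18281623-18281872, minus strand: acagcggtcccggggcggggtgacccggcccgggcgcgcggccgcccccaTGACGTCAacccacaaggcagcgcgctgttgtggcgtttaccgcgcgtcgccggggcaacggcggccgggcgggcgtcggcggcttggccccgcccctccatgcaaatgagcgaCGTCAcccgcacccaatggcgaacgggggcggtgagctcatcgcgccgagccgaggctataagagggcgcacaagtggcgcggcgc

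DUSP1, chr5:172771196-172771445, minus strand: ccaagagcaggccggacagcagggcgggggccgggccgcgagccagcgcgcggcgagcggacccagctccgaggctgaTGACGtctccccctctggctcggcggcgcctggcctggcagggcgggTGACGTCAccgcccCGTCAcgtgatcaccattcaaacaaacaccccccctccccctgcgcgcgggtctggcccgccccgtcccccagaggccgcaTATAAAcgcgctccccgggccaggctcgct

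The CRE begins 200 bases before the start of JUND and 125 bases before that of DUSP1. The core TGACG, on either strand, was in 21.2% of all windows. It was in those of FOS, FOSL2, JUN, JUNB, JUND, EGR1 and DUSP1. TATAAA was in the windows of FOS, JUNB and DUSP1 at 33, 31 and 30 bases before the start, and in 10.7% of all windows. With so few genes, the presence of an element beside a change of any size is given only as a description.

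IER3, an early gene induced by NF-kB and ERK signals, had 0, 0 and 2 counts in the parental-labelled and 3, 0 and 1 in the Ptc+-labelled libraries. No library had more than 3 counts, so no fold is given. Its model in the annotation covers chromosome 6 (30743199 to 30744554, minus strand) and further copies of the region, 6 contigs in all, and shares 359 bases with a transcript on the opposite strand, which had 19 to 33 counts. FLOT1 and TUBB, which neighbor it, had at least 3881 and 50471 counts in every library.

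**Figure D2:**
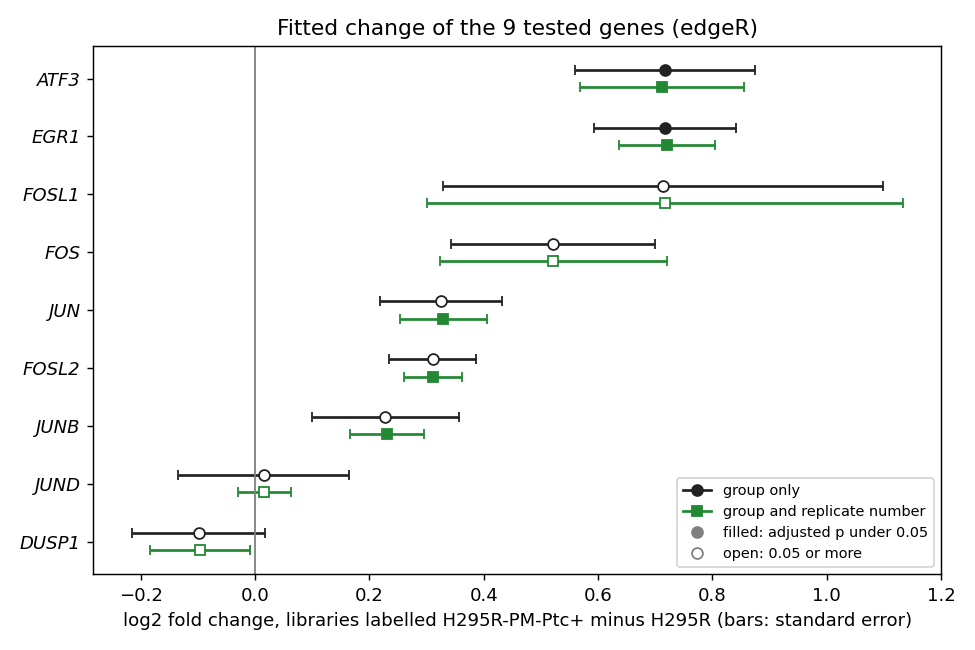
Log2 fold change (horizontal axis) of the 9 tested genes by edgeR, with bars of 1 standard error, in the fit with group alone (black circles) and with the replicate number as well (green squares), filled where the adjusted p is under 0.05. The estimates hardly move between the fits, and FOSL2, JUN and JUNB are filled only with the replicate number.

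With the replicate number as a block, 5 of the 9 genes were called higher, FOSL2, JUN, JUNB, EGR1 and ATF3, and none lower. That fit called 22.5% of all tested genes (12.1% higher and 10.4% lower), and it assumes a pairing that no source states. The estimates were almost the same as without the block, as the plot of fitted changes shows, and the standard errors were smaller for JUN (0.0758), FOSL2 (0.0509), JUNB (0.0650) and JUND (0.0465), and also for EGR1, ATF3 and DUSP1. They were larger for FOS (0.199) and FOSL1 (0.416). Within the replicate numbers, 6 of the 9 genes were higher in the Ptc+-labelled library of all 3 pairs and 1 was lower in all, beside 26.9% and 25.7% of all tested genes. EGR1 differed by 0.72, 0.95 and 0.50 and ATF3 by 0.86, 0.59 and 0.62 on the log2 CPM scale in pairs 1, 2 and 3. For FOS the differences were 0.27, 0.71 and 0.53. JUND gave 0.01, 0.07 and -0.03, so the shared excess of library 1 left almost nothing within pairs. An exact two-sided permutation test over 3 against 3 libraries cannot go below p = 0.1, and FOS, FOSL2, JUN, EGR1 and ATF3 each reached that value. Any gene whose groups do not overlap reaches it, so it restates the lack of overlap. Groups did not overlap for 12.4% of all tested genes on the higher and 11.2% on the lower side.

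**Figure D3:**
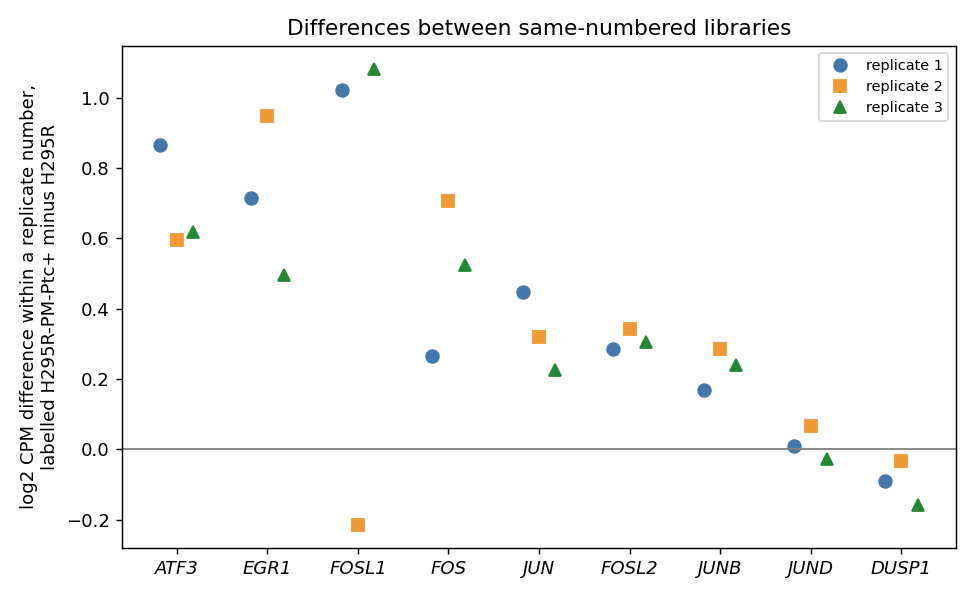
Difference in log2 CPM between the libraries labelled H295R-PM-Ptc+ and H295R of the same replicate number (vertical axis), 1 marker per replicate number, for the 9 tested genes. ATF3, EGR1, FOS, JUN, FOSL2 and JUNB lie above 0 in all 3 pairs, DUSP1 lies below in all 3, and FOSL1 is split.

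Levels per kilobase of gene model ordered the genes in a way that differed little between the groups. In the parental-labelled libraries the mean was 47.9 ± 8.54 CPM per kb for JUND, 12.2 ± 1.85 for JUNB, 6.72 ± 0.394 for FOSL2 and 5.63 ± 0.603 for DUSP1. It was 4.57 ± 0.670 for EGR1 and 4.30 ± 0.510 for JUN, whose ranges overlapped, then 0.706 ± 0.0318 for ATF3, 0.439 ± 0.0385 for FOS and 0.156 ± 0.0640 for FOSL1 (all CPM per kb, SD, n = 3). JUND was thus the most abundant transcript by a wide margin, and all other neighbors in this order did not overlap. In the Ptc+-labelled libraries EGR1 stood before JUN and DUSP1, at 7.51 ± 0.678 CPM per kb, and overlapped FOSL2 at 8.34 ± 0.328. JUN (5.39 ± 0.228) and DUSP1 (5.26 ± 0.392) overlapped there. The model length is the sum of all exons of a name, so a gene with long or unused exons appears lower.

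**Figure D4:**
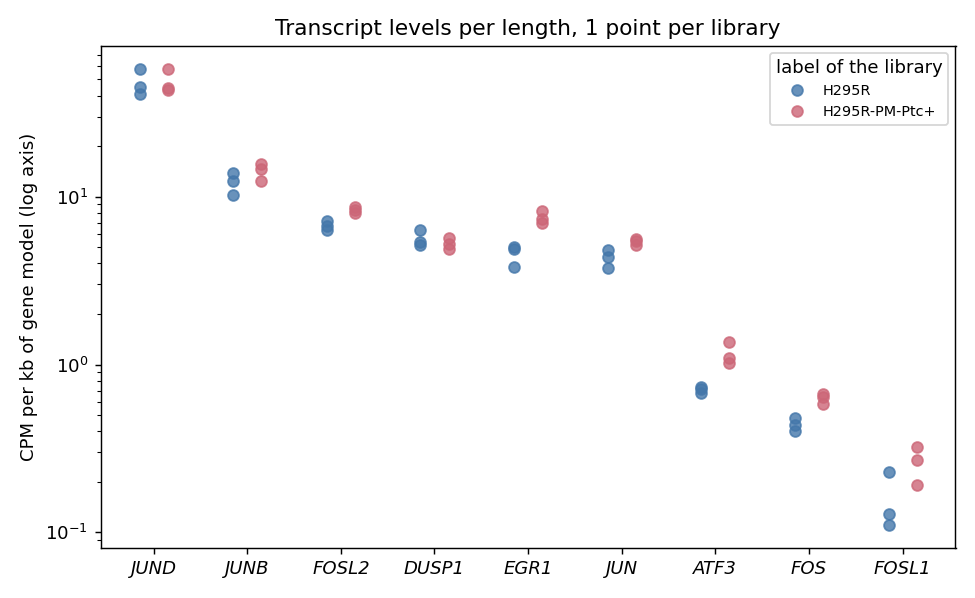
CPM per kb of gene model (log axis) of the 9 tested genes in each library labelled H295R (blue) and H295R-PM-Ptc+ (red), 1 point per library. JUND lies highest in all 6 libraries and FOSL1 lowest.

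Summed per kilobase over FOS, FOSB, FOSL1 and FOSL2, FOS family transcripts reached 7.74 ± 0.366 CPM per kb in the parental-labelled and 9.83 ± 0.313 in the Ptc+-labelled libraries. FOSL2 made up 86.8% ± 1.01 and 84.8% ± 0.682 of these sums, and FOS 5.66% ± 0.230 and 6.43% ± 0.670. Of the JUN family sum, 64.4 ± 9.92 and 68.0 ± 9.37 CPM per kb, JUND took 74.3% ± 2.03 and 71.0% ± 2.44. The FOS family sum was 12.2% ± 1.26 of the JUN family sum in the parental-labelled libraries and 14.6% ± 1.47 in the Ptc+-labelled ones. JUN family transcripts, mostly JUND, were therefore in excess in every library, and the ranges of the ratio overlapped (10.8 to 13.3% and 12.9 to 15.7%). Without division by length the ratio was 41.5% and 48.9%.

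The other genes of the pathway were read from lists set by their known roles. Of 145 tested genes in these lists 11 were called by edgeR without the block, beside 3.73% of all tested genes (2.42% higher and 1.32% lower). For the counts in this and the other lists, the shares of all tested genes were 9.6% higher and 7.67% lower at an unadjusted p under 0.05. With the block they were 12.1% higher and 10.4% lower, and DESeq2 called 5.45%. Whether a list differs from these shares was not tested. Among 13 tested partners of AP-1, none was called by edgeR without the block, where 3 higher and 1 lower had an unadjusted p under 0.05, DESeq2 called 1 and the block 4 higher and 1 lower. FOSB, the remaining FOS family gene, had 2.13, 2.20 and 2.67 CPM against 3.40, 3.46 and 3.15 CPM, groups that did not overlap (log2 fold change 0.51, edgeR adjusted p = 0.122, 0.0318 with the block). The small MAF proteins MAFK (0.37) and MAFG (0.17) had log2 fold changes above 0 and CREM, a CRE-binding factor, one below (-0.13), each called by edgeR with the block and not without it.

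Of 32 other immediate early genes tested, edgeR called none higher and 2 lower, beside 2.42% and 1.32% of all tested genes. The median log2 fold change of the list was 0.00. An unadjusted p under 0.05 was found for 5 on each side, and DESeq2 called 3 in all. IER5L, an early gene of the IER family, fell from 13.8 ± 0.931 to 9.69 ± 0.462 CPM (log2 fold change -0.51, edgeR adjusted p = 0.0306). TNFAIP3, an NF-kB feedback inhibitor, fell from 121 ± 13.5 to 87.5 ± 5.93 CPM (-0.47, edgeR adjusted p = 0.0345). The list thus ran in both directions, with 17 genes above and 15 below 0. With the block 7 were called on each side, beside 12.1% higher and 10.4% lower of all tested genes. Those higher with the block included ZFP36 (0.41), an mRNA decay factor, SIK1 (0.39), a kinase induced by cAMP, PPP1R15A (0.21) and CTGF (0.92), which varied from 1.21 to 4.29 CPM among the parental-labelled libraries. Those lower with the block included ID2 (-0.32), the proto-oncogene MYC (-0.21) and the nuclear receptor NR4A1 (-0.26). IER5L passed only without the parental-labelled library 1, with adjusted p between 0.0538 and 0.137 without any other. TNFAIP3 lost its call without library 2 or 3 of either group, at adjusted p between 0.0608 and 0.150.

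Genes that report or limit ERK output were called in both directions, 2 higher and 2 lower of 18, beside 2.42% and 1.32% of all tested genes. EPHA2, a receptor tyrosine kinase, had 4, 4 and 9 counts against 22, 29 and 28 (log2 fold change 2.20, edgeR adjusted p = 0.0119). DUSP5, a nuclear ERK phosphatase, rose from 9.04, 11.7 and 11.1 CPM to 18.7, 17.1 and 16.4 CPM (0.71, edgeR adjusted p = 0.0139). DUSP4, another nuclear MAP kinase phosphatase, fell from 9.11 ± 0.405 to 5.47 ± 0.275 CPM (-0.74, edgeR adjusted p = 0.00897). SPRED2, an inhibitor of RAS signaling, fell from 22.1 ± 0.371 to 16.3 ± 0.867 CPM (-0.44, edgeR adjusted p = 0.0248). The phosphatase genes DUSP5 and DUSP4 thus changed in opposite directions, and DUSP1 was not called. ETV4 (0.44) and ETV5 (0.42), ETS factors of the ERK response, were called by edgeR with the block and not without it, as was SPRED1 (-0.24). DESeq2 called 5 of the list, ETV5 among them (adjusted p = 0.0174), beside 5.45% of all tested genes. DUSP4 held without each library, DUSP5 was lost without the parental-labelled library 3 (adjusted p = 0.0580) or the Ptc+-labelled library 2 (0.0567), and EPHA2 without the parental-labelled library 2 (0.0625) or the Ptc+-labelled library 2 (0.0554) or 3 (0.0561). SPRED2 passed only without the parental-labelled library 1, with adjusted p of 0.0637 to 0.113 otherwise.

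A further list held the kinases and factors that feed these genes. Of 28 tested genes of the MAP kinase cascade and its factors none was called by edgeR without the block, where none higher and 3 lower had an unadjusted p under 0.05, and DESeq2 called 1. That gene was MAPK10, the JNK3 kinase, at 10.4 ± 1.08 against 6.82 ± 1.75 CPM (log2 fold change -0.61, edgeR adjusted p = 0.107, DESeq2 0.0354). With the block 2 were higher, RPS6KA1 (0.17) and ARAF (0.20), and 4 lower, among them MAPK10, RPS6KA5 (-0.23) and MAPK9 (-0.16), beside 22.5% of all tested genes.

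Of 24 known AP-1 target genes that the counts list, 15 were tested, and 3 were called, all higher, beside 2.42% higher of all tested genes. There edgeR gave 5 higher and 0 lower at an unadjusted p under 0.05, beside 9.6% and 7.67% of all tested genes. DESeq2 called 4, beside 5.45%. SPP1, which encodes osteopontin, had 15.7, 19.4 and 17.6 CPM against 43.6, 43.4 and 41.3 CPM (log2 fold change 1.28, edgeR adjusted p = 3.93e-04). ANXA1, a calcium-dependent membrane-binding protein, had 7.41, 7.17 and 7.36 CPM against 44.1, 27.2 and 27.1 CPM (2.17, edgeR adjusted p = 7.78e-04), the Ptc+-labelled library 1 being the highest. SPP1 and ANXA1 kept their calls when each of the 6 libraries was left out in turn, and their log2 fold changes were above that of each of the 9 tested genes. The remaining 12 were not called by edgeR without the block. With it 7 of the list were higher and 2 lower, beside 12.1% and 10.4% of all tested genes. The list's median log2 fold change was 0.17. HMOX1 (0.46), which encodes heme oxygenase, was called by edgeR with the block and not without it, and by DESeq2 (adjusted p = 0.0424). By edgeR with the block alone, VEGFA (-0.17) and LGALS1 (-0.15) were called on the lower side. ANXA1 is also in a module that the study chose on these libraries.

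Among 13 tested targets and partners of EGR1, 1 was called higher and none lower without the block, where 3 higher and 2 lower had an unadjusted p under 0.05 in edgeR and DESeq2 called 1. With the block 4 were higher and 2 lower, beside 12.1% and 10.4% of all tested genes. IGF2, a growth factor abundant in adrenocortical carcinoma, had a log2 fold change of 0.32 (edgeR adjusted p = 0.129, 0.00115 with the block). FN1, fibronectin, had 0.52 (edgeR adjusted p = 0.253, 5.52e-04 with the block). PDGFA, a growth factor, had -0.47 (edgeR adjusted p = 0.0854, 0.00733 with the block). None of the 21 stress genes listed with ATF3 was called by edgeR without the block. There 6 higher and none lower had an unadjusted p under 0.05, beside 9.6% and 7.67% of all tested genes, and DESeq2 called 1. The block called 8 stress genes higher and none lower, beside 12.1% and 10.4% of all tested genes. The lowest edgeR adjusted p of the stress list without the block belonged to VLDLR (0.28), the cell cycle inhibitor CDKN1A (0.38) and the growth arrest gene GADD45A (0.34), given with their log2 fold changes. CDKN1A was the DESeq2 call (adjusted p = 0.0391), and the median of the list was 0.13.

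Of 11 tested steroidogenic genes 2 were called higher by edgeR and DESeq2 and none lower, where 1 lower had an unadjusted p under 0.05. Over all tested genes edgeR called 2.42% higher and 1.32% lower, and DESeq2 3.37% and 2.08%. CYP21A2, the steroid 21-hydroxylase, rose from 12.8 ± 2.19 to 23.5 ± 1.43 CPM (log2 fold change 0.88, edgeR adjusted p = 0.00670), where reads shared with its pseudogene make the value uncertain. SULT2A1, the sulfotransferase of DHEA, rose from 70.2 ± 10.2 to 106 ± 10.7 CPM (0.60, edgeR adjusted p = 0.0306), and kept its call only without the parental-labelled library 1, with adjusted p of 0.0617 to 0.0879 otherwise. STAR, which carries cholesterol into mitochondria, had a log2 fold change of 0.41 (edgeR adjusted p = 0.346, 3.91e-06 with the block), and library 1 was its highest in both groups. CYP11A1, the first enzyme of the pathway, had -0.25 and was called lower with the block.

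**Figure D5:**
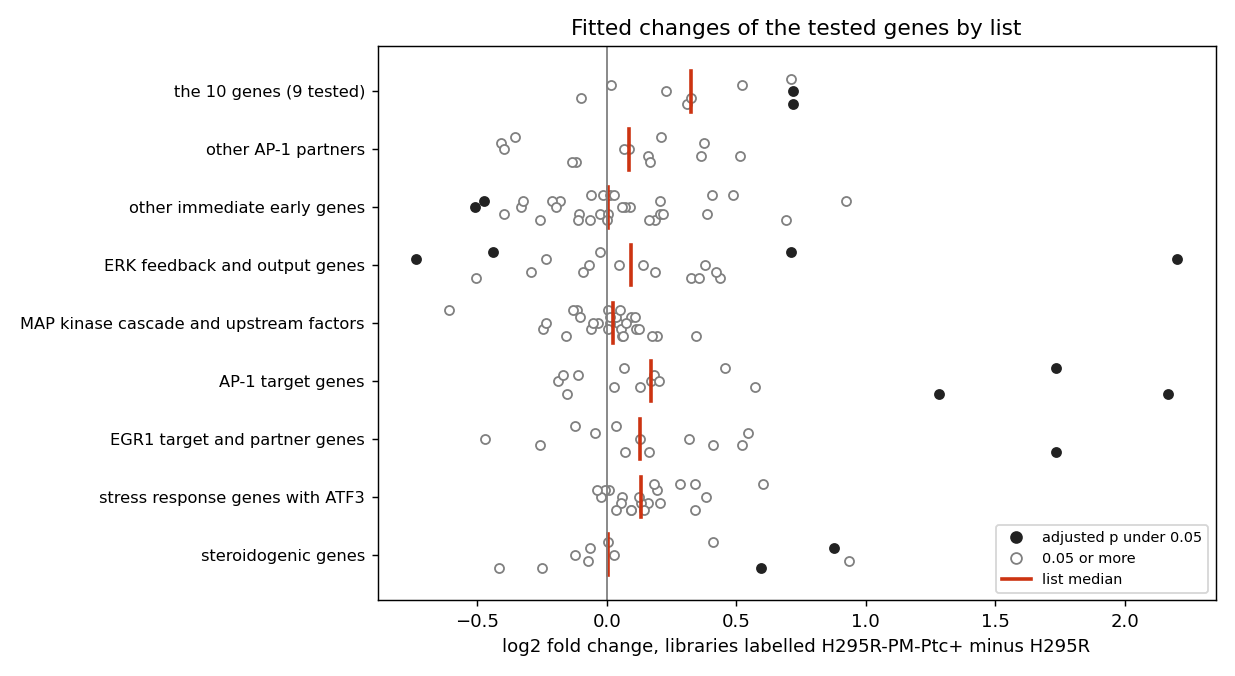
Log2 fold change (horizontal axis) of every tested gene of the 10 genes (top row) and of 8 related lists, filled where the edgeR adjusted p is under 0.05, with the list median as a red bar. The median is 0.33 for the 10 genes and between 0.00 and 0.17 for the other lists.

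The genes whose log2 CPM over the 6 libraries followed the mean standardized level of the 9 genes most closely, among 10048 genes above 10 CPM outside the lists, were ALDH16A1 (Pearson r = 0.994), SLC48A1 (0.994), C1R (0.994), SEC24D (0.992) and TIMM50 (0.991). These points share the group difference and the libraries, and the genes were picked as the highest of many, so r is a description. ALDH16A1, an aldehyde dehydrogenase family gene, was itself higher (28.4 ± 1.89 against 37.6 ± 1.58 CPM, log2 fold change 0.41, edgeR adjusted p = 0.0304). The others were not called without the block.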

How the data were processed

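The authors aligned paired 75-base reads of stranded libraries to hg38 with STAR 2.4.0a. Fragments were assigned to Ensembl gene names by featureCounts, with strand set and multiply mapped reads counted once at their primary position. They deposited raw counts, without normalization. The methods name a mRNA kit and the labels a total RNA kit with polyA RNA. A row without a name held 0 counts and was left out.

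The 10 genes and all lists were chosen with earlier results of these data known. Counts of 3 against 3 libraries, 23264403 to 25813247 per library, were compared in R 4.3.3 by edgeR 4.0.16 (filterByExpr, TMM, glmQLFit, glmQLFTest, two-sided, group only), with Benjamini-Hochberg adjustment over all 16710 tested genes, and called at an adjusted p under 0.05. CPM use TMM-scaled totals, and log2 CPM a prior count of 2. Alternatives were DESeq2 1.42.0, limma-voom (limma 3.58.1), relative log expression factors, no filter, at least 10 counts in every library, the replicate number as a block, each library left out and, chosen after seeing the data, library totals only. The code was tested on simulated data.

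Deviations from the group means of same-numbered libraries correlated across genes at 0.497, 0.307 and 0.228 for numbers 1, 2 and 3. Other pairs gave -0.352 to 0.150. Number 1 stood apart most clearly, while 2 and 3 lay closer to their crossed values of 0.150 and 0.109. The deposited column names share a code between same-numbered libraries, but no source states a pairing, so the block rests on an inference. Named genes were the 10 genes, PTCH1, up to 4 genes per direction in each list with an adjusted p under 0.05 without or with the block, and the 5 genes most like the 10 in pattern. A few genes that this rule names are not reported here. Summaries used pandas 2.3.3 (Python 3.11.15), and plots matplotlib 3.10.9. Promoter sequence came from RefSeq (GRCh38.p14).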

Additional observations from a re-analysis of the deposited data

How the results depend on the processing

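Of 116 values of the 9 tested genes under the alternatives, 101 kept their direction and their side of the threshold, 7 lost a call, 5 gained one and 3 turned their direction. The last 3 were all of JUND, at -0.09 without the parental-labelled library 2, -0.04 without the parental-labelled library 3 and -0.14 without the Ptc+-labelled library 1 (log2), where leaving out each library gave -0.14 to 0.17 and none was called. Calls among the 9 genes numbered 2 as reported, 3 with DESeq2, 5 with the replicate block and 0 to 3 when a library was left out, being 0 without the parental-labelled library 3 or the Ptc+-labelled library 2, where 5 genes each had an unadjusted p under 0.05 in edgeR. Over all genes the 624 calls became 1111 with no filter on low counts, 911 with DESeq2, 3758 with the block and 219 to 810 without a library. The 11 calls in the related lists became 17 with DESeq2, 21 with no filter, 56 with the block and 5 to 18 without a library. The log2 fold change of PTCH1 ranged from -0.91 to -0.67 without a library. The FOS family sum as a share of the JUN family sum was 11.6 to 12.8% and 14.1 to 15.4% without a library, and 41.5% and 48.9% without division by length. Beside the calls given with the block in the report, it changed no other call of the 10 genes or PTCH1. The causes of these changes were not tested. Depth limits FOSL1, FOS and IER3 most, with at most 14, 54 and 3 counts.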
